A study of Mus musculus with 19 samples.

Results

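Metallothioneins and zinc transporters were examined as 6 genes, *Mt1*, *Mt2*, *Slc39a14*, *Slc30a1*, *Slc30a10* and *Mtf1*, which were taken by their symbols from the 31053 genes listed in the count table. RNA from whole livers of male C57BL6J mice had been sequenced from the 3′ ends of polyadenylated RNA. The labels give an age of 6 to 8 weeks. In the TAA groups this cannot be the age at collection, given the weeks of treatment below. The first group, of 5 samples, received vehicle (PBS), and the labels name no vector for it. In both other groups, of 7 samples each, fibrosis was induced by thioacetamide (TAA), a hepatotoxin given at rising doses for 12 weeks. AAV vectors of serotype 8 were injected after 10 weeks of TAA, and livers were taken 4 weeks later. One TAA group received AAV8 TBG eGFP (here AAV-GFP) and the other the combined miR-34b and miR-34c vectors (AAV-miR-34b/c), both under the TBG promoter, which is active in hepatocytes. The comparison of the TAA groups addresses the miRNAs, whereas each comparison with vehicle also includes TAA and a vector. The mature miR-34b and miR-34c were not analysed here.

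Metallothioneins are small cysteine-rich proteins that bind zinc, copper and cadmium. The zinc-sensing transcription factor MTF1, encoded by *Mtf1*, binds metal response elements in the promoters of *Mt1*, *Mt2* and the zinc exporter gene *Slc30a1*. In liver, metallothioneins are also induced by glucocorticoids and by IL-6 during the acute phase response, in which the importer encoded by *Slc39a14* (ZIP14) takes up zinc. ZIP14 also carries iron and manganese, and the product of *Slc30a10* (ZnT10) exports manganese.

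*Mt1* (ENSMUSG00000031765) and *Mt2* (ENSMUSG00000031762) are neighbours on chromosome 8, from 94179082 to 94180327 and from 94172664 to 94173568 on the plus strand of GRCm38, with 5513 bases between them. The stretches upstream of their annotated starts are shown because both transcripts rose together. Capitals mark the core of the metal response element wherever it was found in these stretches, on either strand. The *Mt1* stretch ends just before the gene start given above, and the *Mt2* stretch just before its RefSeq start, 94172618. The sequences are from RefSeq (GRCm38.p6), chr8:94178839-94179081 for *Mt1* and chr8:94172368-94172617 for *Mt2*, plus strand, 5′ to 3′.
Mt1: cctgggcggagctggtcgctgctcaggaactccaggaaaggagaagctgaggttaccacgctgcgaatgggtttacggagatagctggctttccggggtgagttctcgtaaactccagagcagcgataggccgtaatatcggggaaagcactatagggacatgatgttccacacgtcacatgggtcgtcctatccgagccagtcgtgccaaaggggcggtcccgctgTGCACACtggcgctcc
Mt2: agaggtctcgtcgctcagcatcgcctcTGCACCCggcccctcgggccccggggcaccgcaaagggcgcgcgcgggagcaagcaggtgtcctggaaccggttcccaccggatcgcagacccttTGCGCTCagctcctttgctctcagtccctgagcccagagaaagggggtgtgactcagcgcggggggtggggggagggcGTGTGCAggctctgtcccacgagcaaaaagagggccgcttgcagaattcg

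The cores searched were TGCACNC and TGCGCNC, on both strands, from 250 bases before to 50 bases after the RefSeq start. This window held 3 matches for *Mt1*, 4 for *Mt2*, 2 for *Slc30a1*, 3 for *Slc30a10* and 0 for *Mtf1*, and in *Slc30a10* 1 match overlapped the next. The stretches shown hold 1 of the 3 for *Mt1* and 3 of the 4 for *Mt2*. The matches not shown lie 2 and 20 bases past the RefSeq start of *Mt1* and 4 bases past that of *Mt2*. *Slc39a14* is named only. Of 32851 RefSeq promoter windows of this length, 25.7% held at least 1 core, 1.97% at least 3 and 0.517% at least 4. The STAT motif TTCNNNGAA, held by 8.30% of all windows, was not found in these 5. The antioxidant response element core TGACNNNGC, held by 12.4% of all windows, occurred in the windows of *Mt2* and *Slc30a1*. These matches describe letters in the windows and not binding.

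Libraries held 2214073 to 4145454 counts in livers of vehicle-treated mice, 2463842 to 4383805 in AAV-GFP and 2717503 to 5208405 in AAV-miR-34b/c. Markers of hepatocytes were present in all groups, with none of 14 listed genes at 0 and a summed level of 73199 to 113972 CPM (counts scaled by the TMM-normalized size of the library). Against vehicle, *Hnf4a*, *Trf* and *Fah* were higher (log2 fold change 1.21, 0.95 and 0.71) and *Cps1* and *Cyp2e1* lower (-0.90 and -0.63) in AAV-miR-34b/c. *Hnf4a* and *Cyp3a11* were higher in AAV-GFP (0.86 and 1.06). Of all genes, 21.9% and 12.7% were called in these comparisons. In 6 pairs of libraries within a group, counts lay closer together than in all others, with a coefficient of variation beyond counting of 0.0812 to 0.171 against 0.215 to 0.480. These pairs were vehicle 1 and 4, vehicle 3 and 5, AAV-GFP 1 and 2, and AAV-miR-34b/c 1 and 2, 3 and 4, and 5 and 7. They still differed by more than counting error (chi-square per gene of at least 2.90) and were kept as separate samples, as they are listed, whereas repeat preparations of 1 liver could also differ by more than counting error. Whether both libraries of a pair came from different mice was not tested, and the p-values measure the spread between libraries. AAV-miR-34b/c libraries 5 and 7 also stood apart from their group in clock output transcripts. *Dbp*, a gene under circadian control, was at 82.9 and 80.6 CPM there, at 0.79 to 3.67 CPM in the other 5 libraries of the group and at 64.5 to 107 CPM in vehicle. In AAV-GFP, *Dbp* was at 88.7 CPM in library 7 and at 4.67 to 35.9 CPM in the others. For the 6 genes and the list genes named, edgeR calls that were lost with AAV-miR-34b/c libraries 5 and 7 left out or with close pairs summed are given beside the result. This does not extend to markers of cell types other than neutrophils. Summing the close pairs kept 218 of the 1212 genes called between AAV-GFP and vehicle, 319 of the 2037 called in AAV-miR-34b/c against vehicle and 78 of the 311 called between the TAA groups.

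*Mt1* and *Mt2* transcripts were higher with AAV-miR-34b/c than with AAV-GFP or vehicle. *Mt1* was at 939, 2059, 2199, 2202 and 2309 CPM in the 5 vehicle libraries. It ranged from 107 to 1830 CPM (median 801) in AAV-GFP and from 4643 to 9205 CPM (median 8356) in AAV-miR-34b/c. All 7 AAV-miR-34b/c libraries therefore lay above every vehicle and AAV-GFP library, and the low values of AAV-miR-34b/c were those of libraries 5 and 7, at 4643 and 5134 CPM. *Mt1* was 3.91-fold higher in AAV-miR-34b/c than in vehicle (log2 fold change 1.97, SE 0.25, edgeR adjusted p = 0.000145) and 8.31-fold higher than in AAV-GFP (log2 fold change 3.06, SE 0.44, adjusted p = 0.000499). The 2 comparisons of AAV-miR-34b/c share its 7 libraries.

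*Mt2* was at 289, 309, 608, 745 and 763 CPM in vehicle. In AAV-GFP it ranged from 37.1 to 992 CPM (median 400.0), and in AAV-miR-34b/c from 1420 to 7518 CPM (median 3659). The lowest AAV-miR-34b/c library was again above the highest of both other groups. *Mt2* was 7.93-fold higher in AAV-miR-34b/c than in vehicle (log2 fold change 2.99, SE 0.44, edgeR adjusted p = 0.000385) and 8.82-fold higher than in AAV-GFP (log2 fold change 3.14, SE 0.56, adjusted p = 0.00337). In two-sided exact permutation tests of the mean log2 CPM (n = 7 and 5 libraries), p was 0.00126 for *Mt1*, the smallest that this design allows, and 0.00253 for *Mt2* against vehicle. Against AAV-GFP (n = 7 and 7), the exact p was 0.000583 for both genes, again the smallest possible.

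**Figure D1:**
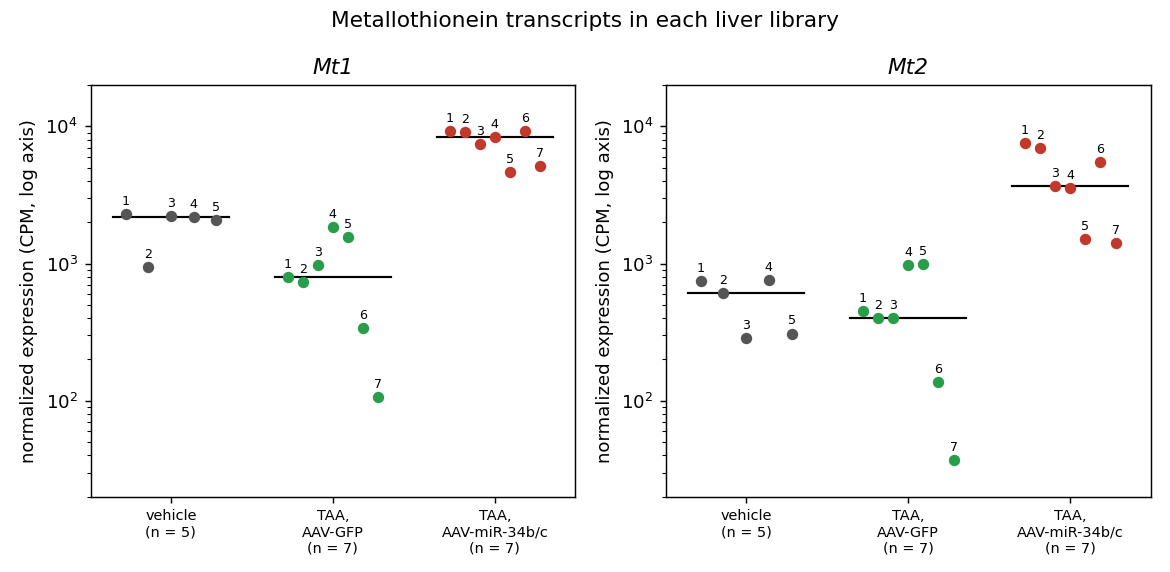
Normalized expression (CPM, log axis) of *Mt1* and *Mt2* in each library, with the library number above each point and the group median as a line. The 7 AAV-miR-34b/c libraries lie above all others in both panels, and AAV-GFP libraries 6 and 7 are the lowest.

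Without AAV-miR-34b/c libraries 5 and 7, a choice made after seeing the data, the log2 fold change of *Mt1* was 2.16 against vehicle and 3.25 against AAV-GFP, and that of *Mt2* was 3.33 and 3.48 (edgeR adjusted p = 2.7e-05, 0.000484, 1.7e-05 and 0.00111). With close pairs summed, which leaves 4 samples of AAV-miR-34b/c, 6 of AAV-GFP and 3 of vehicle, *Mt1* gave 2.13 and 3.06 and *Mt2* 3.004 and 3.17 (edgeR adjusted p = 0.0179, 0.0177, 0.0199 and 0.0373). The exact permutation p of *Mt2* against vehicle then became 0.0571, where 0.0286 is the smallest that 4 and 3 samples allow. With the clock score (8 clock output genes, averaged as log2 CPM) as a covariate, the log2 fold change against vehicle fell to 1.44 for *Mt1* and to 1.75 for *Mt2* (edgeR adjusted p = 0.00179 and 0.00799).

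Between AAV-GFP and vehicle, the metallothioneins were not called. *Mt1* differed by -1.09 on the log2 scale (SE 0.43, edgeR adjusted p = 0.0951), with an exact permutation p of 0.0417 for the mean log2 CPM (n = 7 and 5), and *Mt2* by -0.16 (SE 0.50, adjusted p = 0.865). The exact p of *Mt1* became 0.0556 by library size only, 0.190 with close pairs summed and 0.0152 to 0.0879 without 1 library, above 0.05 in 7 of those 12 tests. The order of the *Mt1* levels was thus AAV-GFP, vehicle, AAV-miR-34b/c, in which the first neighbours were not separated by the edgeR test. For *Mt1*, 4 of 7 AAV-GFP libraries lay below all vehicle libraries and the others overlapped with them. With no filter on low counts, the edgeR call of *Mt1* was made (adjusted p = 0.0396), as it was by limma-voom with sample quality weights (adjusted p = 0.0253) and without AAV-GFP library 4 (adjusted p = 0.0499). With the clock score as a covariate, *Mt1* differed by -1.84 without a call (edgeR adjusted p = 0.0689).

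Both metallothionein genes ranged most widely in AAV-GFP. The highest *Mt1* value was 17.1-fold the lowest in AAV-GFP, against 2.46-fold in vehicle and 1.98-fold in AAV-miR-34b/c. For *Mt2*, these ratios were 26.7 in AAV-GFP, 2.65 in vehicle and 5.29 in AAV-miR-34b/c. Without AAV-GFP library 7, the ratios in AAV-GFP fell to 5.39 for *Mt1* and 7.22 for *Mt2*, and without vehicle library 2 that of *Mt1* in vehicle fell to 1.12. AAV-GFP libraries 6 and 7 were the lowest for both genes, with *Mt1* at 339 and 107 CPM and *Mt2* at 137 and 37.1 CPM, and libraries 4 and 5 the highest for both. The difference in spread between groups was not tested.

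As a share of all counts, both metallothionein transcripts together took 0.163% to 0.311% in vehicle (mean 0.253% ± 0.0575, SD, n = 5), 0.0151% to 0.299% in AAV-GFP (0.149% ± 0.104, SD, n = 7) and 0.641% to 1.41% in AAV-miR-34b/c (1.08% ± 0.317, SD, n = 7). In AAV-miR-34b/c library 1, this was 1 of every 71.1 counts, and in AAV-GFP library 7 it was 1 of 6633. The shares of the AAV-miR-34b/c group did not overlap with those of the other groups. The share was higher in AAV-miR-34b/c than in vehicle (log2 difference 2.06, two-sided exact permutation p = 0.00126) and than in AAV-GFP (3.28, exact p = 0.000583). Between AAV-GFP and vehicle, the log2 difference was -1.22 (exact p = 0.0922). Adjusted by the Benjamini-Hochberg method over 6 exact tests, 3 of the share and 3 of the ratio of the genes, these p-values were 0.00379, 0.0035 and 0.111.

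The ratio of *Mt1* to *Mt2* counts within a library does not depend on scaling. It was 1.54, 2.88, 3.10, 6.66 and 7.63 in vehicle, 1.58 to 2.88 (median 1.87) in AAV-GFP and 1.22 to 3.61 (median 2.04) in AAV-miR-34b/c. *Mt1* counts exceeded *Mt2* counts in all 19 libraries, and the groups overlapped. The log2 ratio differed by -0.84 between AAV-GFP and vehicle, by -0.87 between AAV-miR-34b/c and vehicle and by -0.03 between the TAA groups (two-sided exact permutation p = 0.0518, 0.0808 and 0.902, adjusted over the same 6 tests 0.104, 0.111 and 0.902). Without vehicle library 2, the first became -1.15 (exact p = 0.00303) and the second -1.18 (exact p = 0.0212). Without AAV-GFP library 7 the first was -0.91 (exact p = 0.0433), and without AAV-miR-34b/c libraries 5 and 7 the second was -1.15 (exact p = 0.0476).

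*Slc39a14*, the importer gene (ENSMUSG00000022094, chromosome 14, 70303469 to 70351425, minus strand), was at 25.3, 34.2, 43.7, 47.7 and 70.4 CPM in vehicle. It ranged from 20.5 to 46.9 CPM (median 34.9) in AAV-GFP and from 33.9 to 67.2 CPM (median 55.7) in AAV-miR-34b/c. In AAV-miR-34b/c, 5 of 7 libraries lay above all AAV-GFP libraries, and all 7 lay within the range of vehicle. Against AAV-GFP, *Slc39a14* differed by 0.63 on the log2 scale (SE 0.18, edgeR adjusted p = 0.0686), with an exact permutation p of 0.00641 (n = 7 and 7). It was called by DESeq2 (adjusted p = 0.0225) and by edgeR without AAV-GFP library 2 (0.0442), without AAV-miR-34b/c library 5 (0.0356) or without AAV-miR-34b/c libraries 5 and 7 (0.0326). The differences from vehicle were -0.38 for AAV-GFP and 0.26 for AAV-miR-34b/c (SE 0.23 and 0.22, edgeR adjusted p = 0.282 and 0.424).

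*Slc30a10*, the manganese exporter gene (ENSMUSG00000026614, chromosome 1, 185454848 to 185468762, plus strand), was higher in both TAA groups than in vehicle. It was at 15.5, 22.3, 22.7, 29.3 and 31.8 CPM in vehicle, 20.2 to 61.5 CPM (median 48.9) in AAV-GFP and 27.9 to 119 CPM (median 44.6) in AAV-miR-34b/c. Above all vehicle libraries lay 6 of 7 AAV-GFP libraries and 5 of 7 AAV-miR-34b/c libraries, and the exceptions were AAV-GFP library 7 and AAV-miR-34b/c libraries 5 and 7. The change was 1.95-fold in AAV-GFP (log2 fold change 0.96, SE 0.24, edgeR adjusted p = 0.0146) and 2.44-fold in AAV-miR-34b/c (log2 fold change 1.29, SE 0.34, adjusted p = 0.0133). Between the TAA groups, the log2 fold change was 0.31 (SE 0.30, adjusted p = 0.703).

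Both calls of *Slc30a10* were lost with close pairs summed (log2 fold change 1.02 and 1.504, edgeR adjusted p = 0.0892 and 0.0717). They were also lost with the clock score as a covariate (0.61 and 0.44, adjusted p = 0.273 and 0.331), and that of AAV-GFP against vehicle also with all 3 groups in one fit (0.96, adjusted p = 0.0579). The clock score was 4.32 to 5.17 in vehicle, and the libraries with *Slc30a10* in the range of vehicle had scores of 4.69 (AAV-GFP 7), 4.90 and 4.98 (AAV-miR-34b/c 5 and 7). The remaining TAA libraries had scores of 2.03 to 4.12. The part of clock output in the difference of *Slc30a10* was not tested beyond this covariate.

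*Slc30a1*, the exporter of zinc across the plasma membrane (ENSMUSG00000037434, chromosome 1, 191906767 to 191913247, plus strand), was at 34.2, 36.2, 40.6, 42.2 and 57.9 CPM in vehicle. It was at 22.3 to 51.5 CPM (median 33.1) in AAV-GFP and 21.5 to 46.2 CPM (median 39.6) in AAV-miR-34b/c. The 3 groups overlapped, and no comparison passed the edgeR test (log2 differences -0.30, -0.24 and 0.04, SE 0.20, 0.21 and 0.21, adjusted p = 0.338, 0.422 and 0.955, in the order AAV-GFP against vehicle, AAV-miR-34b/c against vehicle, AAV-miR-34b/c against AAV-GFP). Without AAV-GFP library 7, the mean log2 CPM of *Slc30a1* differed by -0.41 between AAV-GFP and vehicle (exact permutation p = 0.0433, against 0.172 with all libraries).

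*Mtf1*, the gene of the zinc-sensing factor (ENSMUSG00000028890, chromosome 4, 124802104 to 124849800, plus strand), was at 10.996, 13.7, 13.8, 14.2 and 16.8 CPM in vehicle, 11.2 to 22.3 CPM (median 13.9) in AAV-GFP and 7.89 to 17.6 CPM (median 13.6) in AAV-miR-34b/c. The groups overlapped throughout. In the same order of comparisons, the log2 differences were 0.04, -0.00011 and -0.05 (SE 0.22, 0.25 and 0.21, edgeR adjusted p = 0.929, 0.9997 and 0.954). These values rest on 20 to 67 counts per library, against 335 to 43902 counts for *Mt1*.

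**Figure D2:**
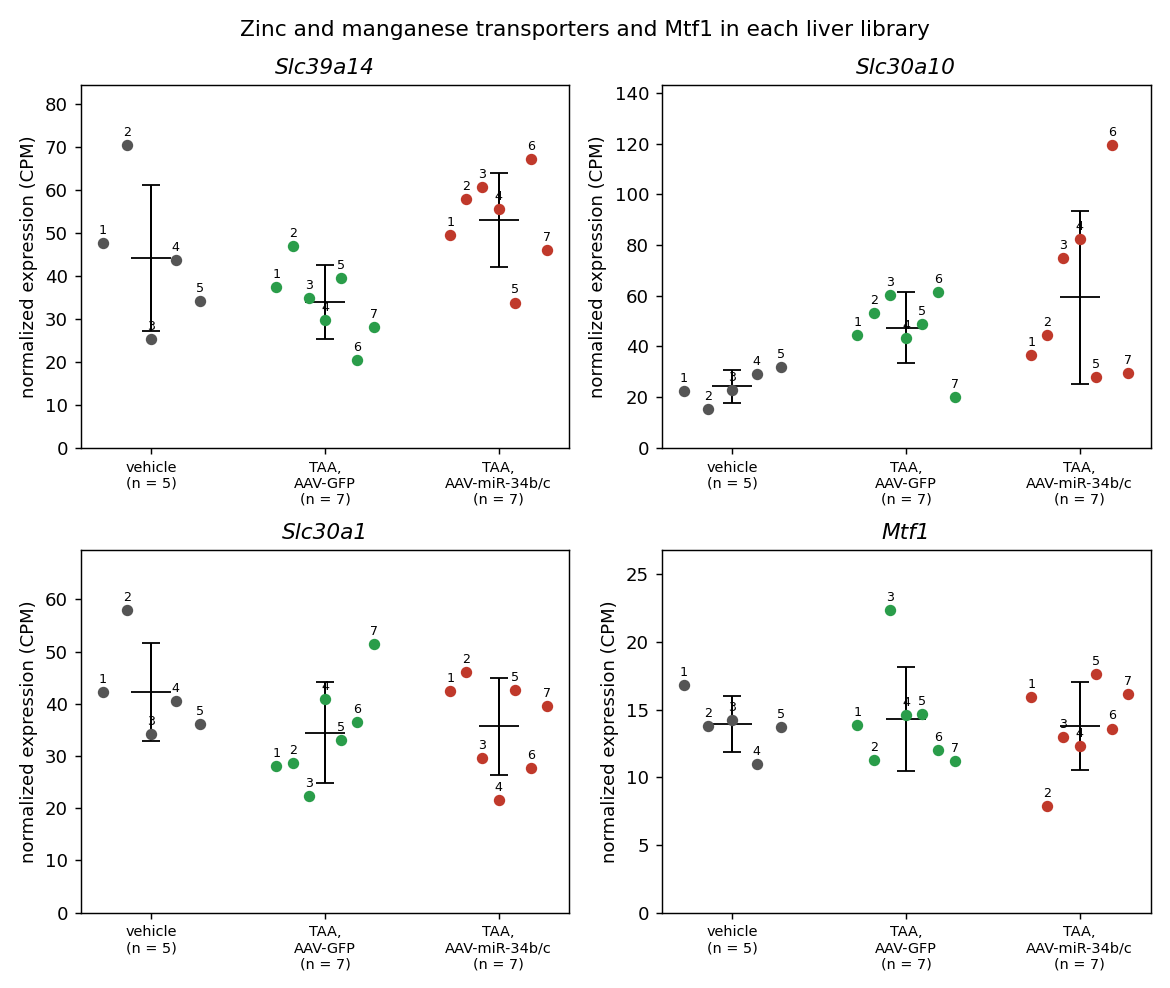
Normalized expression (CPM) of *Slc39a14*, *Slc30a10*, *Slc30a1* and *Mtf1* in each library, numbered, with the group mean and SD. For *Slc30a10*, AAV-GFP library 7 and AAV-miR-34b/c libraries 5 and 7 lie in the range of vehicle, and for *Slc30a1* and *Mtf1* the 3 groups overlap.

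Read against all genes tested, 1 of the 6 genes was called between AAV-GFP and vehicle, where 12.7% of 9522 genes were called and 7.54% were called higher. In AAV-miR-34b/c, 3 of 6 were called against vehicle, all higher, where 21.9% of 9290 genes were called and 12.2% were called higher. Against AAV-GFP, 2 of 6 were called in AAV-miR-34b/c, both higher, where 3.36% of 9252 genes were called and 1.95% were called higher. Groups did not overlap for 0, 2 and 2 of the 6 genes in these comparisons, and for 4.79%, 7.92% and 1.37% of all genes tested.

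*Slc39a4*, which encodes the intestinal zinc importer ZIP4, was the only other called gene of the 2 zinc transporter families. Of the SLC30 exporter family, 7 of 10 listed genes were tested in each comparison, and *Slc30a10* alone was called, 1 of 7 in each comparison with vehicle, where 12.7% and 21.9% of all genes were called. The median log2 fold change of these 7 genes was -0.32 for AAV-GFP against vehicle, -0.24 for AAV-miR-34b/c against vehicle and 0.25 between the TAA groups, beside -0.01, 0.02 and -0.01 over all genes tested. Of the SLC39 importer family, 9 or 10 of 14 listed genes were tested, with medians of 0.08, 0.27 and 0.28, and 1 of 9 was called in AAV-miR-34b/c against vehicle. These shares of called genes are near or below those of all genes. *Slc39a4* was higher in AAV-miR-34b/c than in vehicle (41.0 ± 9.42 and 68.5 ± 20.6 CPM, SD, n = 5 and 7, log2 fold change 0.74, SE 0.23, edgeR adjusted p = 0.0298). It was not called with close pairs summed (adjusted p = 0.181) or without AAV-miR-34b/c libraries 5 and 7 (adjusted p = 0.0863). The brain metallothionein gene *Mt3*, *Slc30a2* and *Slc39a12* had 0 counts in all libraries, which allows up to 0.0496 CPM each (3 counts over the summed libraries), and *Mt4* had 2 counts in all.

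**Figure D3:**
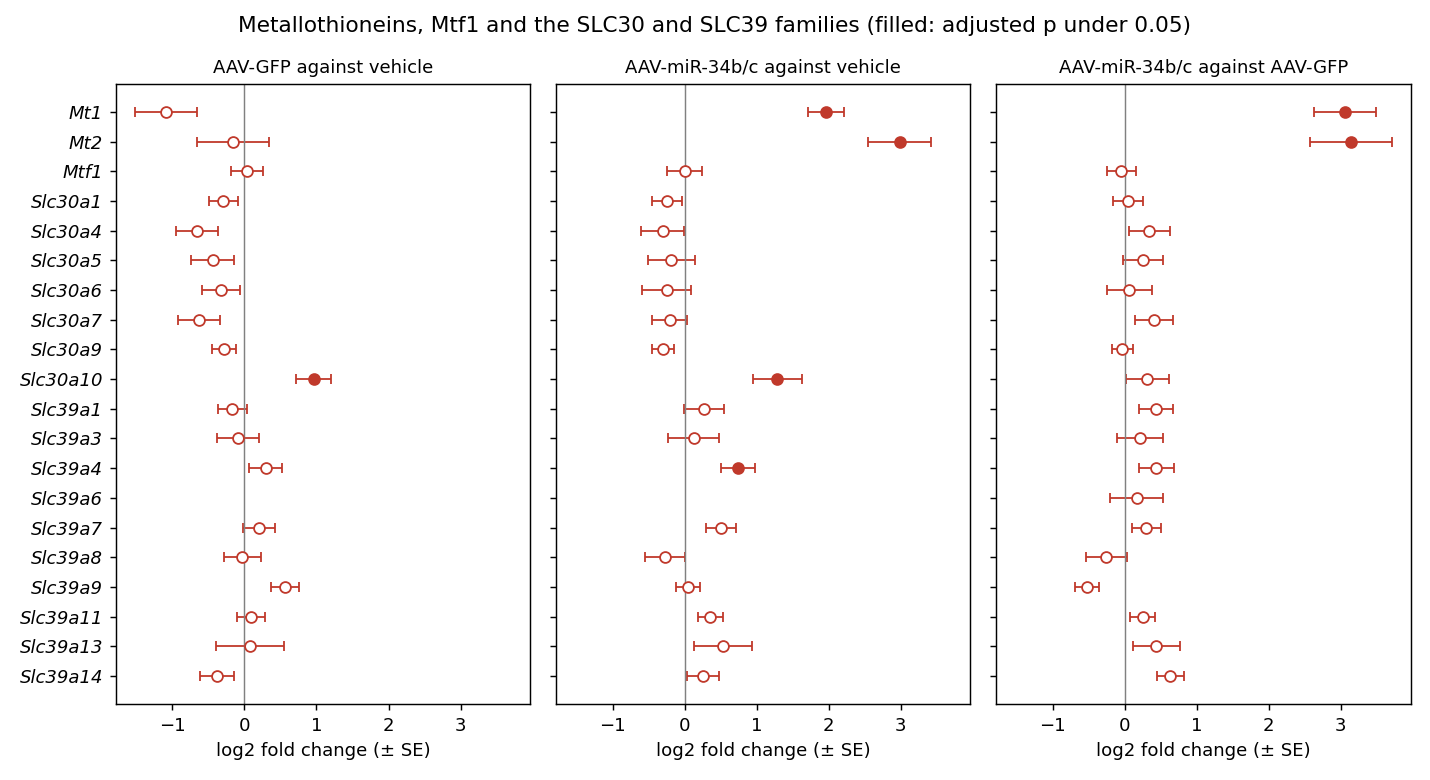
Log2 fold change with its SE for the tested metallothionein genes, *Mtf1* and the tested members of the SLC30 and SLC39 families in the 3 comparisons, with filled points for an adjusted p under 0.05. *Mt1* and *Mt2* stand to the right in both comparisons of AAV-miR-34b/c, at 1.97 to 3.14, and the transporters lie between -0.66 and 1.29.

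Of the genes reported as MTF1 targets outside the 6, 8 were listed and 6 tested. In the 3 comparisons, 3, 1 and 1 of the 6 were called, beside 12.7%, 21.9% and 3.36% of all genes tested, so the share against vehicle in AAV-miR-34b/c was not above that of all genes. *Gclc*, *Ndrg1* and *Csrp1* were higher in AAV-GFP than in vehicle (log2 fold change 1.53, 1.52 and 0.89) and *Ndrg1* was higher in AAV-miR-34b/c than in vehicle (1.08). Between the TAA groups, *Gclc*, which encodes the catalytic subunit of glutamate cysteine ligase, was lower in AAV-miR-34b/c (-1.31, SE 0.14, edgeR adjusted p = 2.97e-05). The list's median log2 fold change was 0.63, 0.27 and -0.27 in the 3 comparisons, in the same order. When close pairs were summed, the calls of *Csrp1* in AAV-GFP and of *Ndrg1* in AAV-miR-34b/c were lost (edgeR adjusted p = 0.102 and 0.104). *Gclc* is also held by the list of NRF2 targets.

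Of 12 copper handling genes tested, 3, 4 and 1 were called in the 3 comparisons, beside 12.7%, 21.9% and 3.36% of all genes. *Cp*, which encodes ceruloplasmin, was higher in AAV-miR-34b/c than in vehicle (log2 fold change 1.23, SE 0.20, edgeR adjusted p = 0.000889) and than in AAV-GFP (0.74, SE 0.19, adjusted p = 0.0386). Against vehicle, *Sod1* and *Sco2* were higher in AAV-miR-34b/c (0.54 and 0.58) and *Ccs*, the copper chaperone of SOD1, was lower (-0.38). In AAV-GFP, *Sco2* was higher (0.77) and *Slc31a2* and *Ccs* lower (-0.92 and -0.49) than in vehicle. Of the manganese handling genes, *Slc11a2*, a divalent metal importer gene, was higher in AAV-miR-34b/c than in vehicle (0.94). With close pairs summed, *Cp* against vehicle was the only call left in both lists (1.27, edgeR adjusted p = 0.0351), and without AAV-miR-34b/c libraries 5 and 7 *Ccs* in AAV-miR-34b/c was not called (adjusted p = 0.129).

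Acute phase transcripts were also higher in AAV-miR-34b/c. Of 27 acute phase and STAT3 genes tested of 28 listed, 21 were higher in AAV-miR-34b/c than in AAV-GFP and 17 higher than in vehicle, with none lower and a median log2 fold change of 1.56 and 1.30, where 1.95% and 12.2% of all genes were called higher and 1.42% and 9.75% lower. Between AAV-GFP and vehicle, 6 were lower and 1 higher (median -0.50), where 5.19% of all genes were called lower and 7.54% higher. With close pairs summed, 10 were higher in AAV-miR-34b/c than in AAV-GFP and 7 higher than in vehicle, and in AAV-GFP 1 was lower and 0 higher than in vehicle. Of all genes, 0.526%, 1.91%, 0.846% and 1.41% were then called in these directions. *Il1rn*, 1 of the 17 and of these 7, reached the filter on low counts in only 1 vehicle library. It entered the test through AAV-miR-34b/c, so that it adds no support to either count. The calls with the smallest adjusted p against AAV-GFP were *Saa4*, *Serpina3n*, *Itih3* and *Crp* (log2 fold change 1.60, 2.58, 1.84 and 1.09), and against vehicle *Serpina3n*, *Stat3*, *Lbp* and *C3* (2.37, 1.26, 1.63 and 1.25). The summed level of the 28 genes was 39008 to 80765 CPM in vehicle, 28063 to 67298 in AAV-GFP and 60274 to 209235 in AAV-miR-34b/c. In AAV-miR-34b/c libraries 5 and 7 this sum was 61526 and 60274 CPM, within the range of vehicle, and *Mt1* was above every vehicle library. The sum does not speak for each listed gene. In counts before scaling, *Serpina3n* had at least 2233 in every AAV-miR-34b/c library and at most 1182 in vehicle. For *Saa4*, the lowest AAV-miR-34b/c count (2039) was below the highest of vehicle (2457).

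Of the neutrophil markers, *S100a8* and *S100a9* were higher in the same group. Of 9 listed, *S100a8* and *S100a9*, which encode the subunits of calprotectin, passed the filter on low counts in all 3 comparisons. They were higher in AAV-miR-34b/c than in vehicle (log2 fold change 4.06 and 3.87), where 12.2% of all genes were called higher. They were also higher than in AAV-GFP (4.36 and 4.31), where 1.95% of all genes were called higher. With close pairs summed, the calls against vehicle were lost (edgeR adjusted p = 0.0618 and 0.0665). The others that passed did so only in comparisons that include AAV-miR-34b/c. The summed level of the 9 genes was 16.9 to 81.7 CPM in vehicle, 15.01 to 73.2 in AAV-GFP and 67.1 to 2035 in AAV-miR-34b/c, and *Ly6g* had no count in vehicle. In AAV-miR-34b/c libraries 5 and 7, the summed level was 74.1 and 67.1 CPM, within the range of vehicle. Markers of other cell types were also called between the TAA groups, where 3.36% of all genes were called. In AAV-miR-34b/c, *Col1a1* and *Col3a1* of activated stellate cells (-1.92 and -1.46) and *Gpnmb* of macrophages (-1.37) were lower. The macrophage genes *Cd5l* and *C1qb* (0.86 and 0.94) and the endothelial gene *Lyve1* (1.06) were higher. No listed hepatocyte, cholangiocyte or erythroid gene was called there. In these bulk samples, the number of cells of a type and the RNA per cell cannot be told apart. The part of neutrophils, of other cell types or of the acute phase in the metallothionein levels was not tested.

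**Figure D4:**
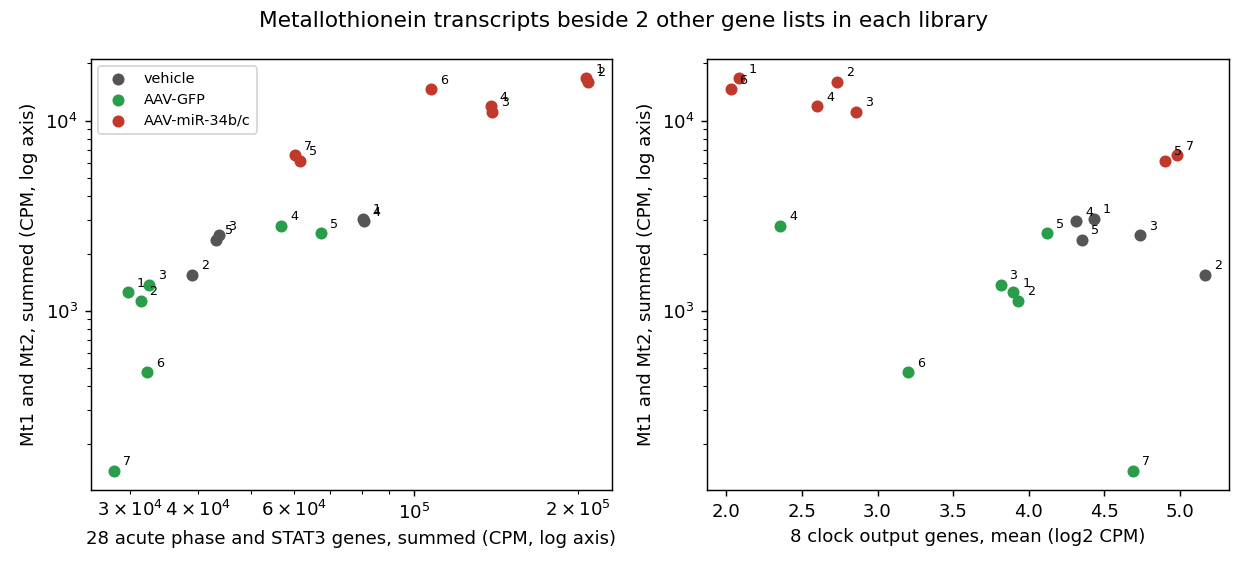
Summed CPM of *Mt1* and *Mt2* in each library (log axis) against the summed CPM of 28 acute phase and STAT3 genes (left, log axis) and against 8 clock output genes, averaged as log2 CPM (right), with libraries numbered and groups by colour. AAV-miR-34b/c libraries 5 and 7 lie within the range of vehicle on both horizontal axes and above vehicle on the vertical axis.

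Glucocorticoid response genes were called in both directions. All 10 listed genes were tested, with 3 higher and 2 lower in AAV-GFP than in vehicle, 2 higher and 2 lower in AAV-miR-34b/c than in vehicle, and 1 higher and 1 lower between the TAA groups, beside 12.7%, 21.9% and 3.36% of all genes called. *Zbtb16*, 1 of those higher in both TAA groups, had 1 to 6 counts per library in vehicle, 0 to 120 in AAV-GFP and 10 to 206 in AAV-miR-34b/c. No vehicle library reached the filter on low counts, so that *Zbtb16* entered these tests only through the TAA groups and its calls are no support for the list. *Fkbp5*, which encodes a co-chaperone of the glucocorticoid receptor, was higher in AAV-miR-34b/c than in AAV-GFP (1.15, SE 0.25, edgeR adjusted p = 0.0121), whereas it was lower in AAV-GFP than in vehicle (-0.77, adjusted p = 0.0411) and not called in AAV-miR-34b/c against vehicle (0.38, adjusted p = 0.284). Between the TAA groups, *Dusp1* was lower in AAV-miR-34b/c (-0.91). *Klf9* was higher than vehicle in AAV-GFP and AAV-miR-34b/c (0.85 and 0.47), *Dusp1* was higher in AAV-GFP (0.94), *Cebpd* was lower in AAV-GFP (-0.69), and *Per1* and *Sgk1* were lower in AAV-miR-34b/c (-0.84 and -0.82). With close pairs summed, *Zbtb16* in AAV-miR-34b/c against vehicle was the only call left in this list (4.10, edgeR adjusted p = 0.0284). Without AAV-miR-34b/c libraries 5 and 7, *Zbtb16* did not pass the filter against vehicle, and *Dusp1* between the TAA groups was the only call left in the comparisons of AAV-miR-34b/c (-1.15, adjusted p = 0.0056).

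NRF2 target genes, which encode enzymes of glutathione and xenobiotic metabolism, were higher in AAV-GFP than in vehicle in 6 of 15 tested, where 7.54% of all genes were called higher. The smallest adjusted p were those of *Gsta2*, *Gclc*, *Gstm1* and *Abcc3* (log2 fold change 2.34, 1.53, 1.90 and 1.06). In AAV-miR-34b/c, 4 of 15 were lower than in AAV-GFP, *Gsta2*, *Gclc*, *Gsta4* and *Cbr3* (-2.28, -1.31, -1.09 and -1.95), where 1.42% of all genes were called lower. *Gstm1* was the only gene of this list called in AAV-miR-34b/c against vehicle (0.92), where 12.2% of all genes were called higher and 9.75% lower. After summing of close pairs, the calls of *Abcc3* in AAV-GFP and of *Gstm1* in AAV-miR-34b/c were lost (edgeR adjusted p = 0.119 and 0.126), the latter also without AAV-miR-34b/c libraries 5 and 7 (adjusted p = 0.098). *Cbr3*, 1 of the 6 and of the 4, reached the filter in only 1 vehicle and 1 AAV-miR-34b/c library and thus entered both tests through AAV-GFP, so that it adds no support to either count. Reads of near-identical glutathione S-transferase genes could be split in counting.

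Pooled over the 3 groups, the 2 metallothionein genes deviated together from their group means. After subtraction of the group means of log2 CPM, Pearson's r of *Mt1* and *Mt2* was 0.87 over 19 libraries. This was not seen in the vehicle libraries alone. Vehicle library 2 was the lowest of its group in *Mt1* (939 CPM), with *Mt2* at 608 CPM. Vehicle libraries 3 and 5 were the lowest in *Mt2* (289 and 309 CPM), with *Mt1* at 2202 and 2059 CPM. Among 9949 genes, those most like *Mt1* were *Tm6sf2* (0.91), *Scara5* (0.88), *Mt2*, *Slc41a2* (0.87) and *Tmem176a* (0.86). Those most like *Mt2* were *Itih3* and *Aldh1l1* (both 0.90), *Trf* (0.89), *Scara5* and *Itih4* (both 0.87). Those most like *Slc39a14* were *Cds2* (0.87), *Med13* (0.86), *Lpgat1*, *Snhg11* (both 0.85) and *2510039O18Rik* (0.81). *Slc30a1* and *Slc30a10* deviated in opposite directions (r = -0.78). These values describe the libraries, which include the close pairs and share depth and clock output, and carry no test.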

How the data were processed

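Liver RNA of 19 samples had been prepared with a 3′ mRNA kit and sequenced single-end. The values are the counts per gene deposited by the authors, without normalization, after quality filtering, trimming, alignment and counting. The submitters' processing notes name STAR and mm10. Molecular identifiers, strand and annotation release are not given in the sources used here, so errors from counts cover counting error only. Symbols and positions were matched by Ensembl identifier to GENCODE of GRCm38 (30934 of 31053 genes). Promoter windows were from RefSeq, in which 5 of the 6 genes were matched.

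Each pair of groups was fitted with edgeR 4.0.16 in R 4.3.3 (TMM, filterByExpr with minimum count 10 and minimum total count 15, glmQLFit and glmQLFTest, no covariate), with Benjamini-Hochberg adjustment over all genes tested and a threshold of 0.05. The script was tested on simulated data. Single genes (18 tests), the ratio (counts plus 0.5) and the share (6 tests) were compared by two-sided exact permutation over libraries, with log2 CPM at a prior count of 2, and those of single genes are not adjusted. CPM was computed with TMM over all libraries.

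The genes and lists were chosen with earlier results of these data known. Named were the 6 genes, called genes of the metallothionein, SLC30 and SLC39 families, up to 4 called genes per other list and comparison by smallest adjusted p, and the 5 genes most correlated with *Mt1*, *Mt2* and *Slc39a14* after removal of group means. Lists of clock output and cell type markers were outside this rule, and the markers given were added after they were seen. Of the neutrophil list, only *S100a8* and *S100a9* were taken. Other calls in these lists, and calls in the acute phase list between AAV-GFP and vehicle, are not named. *Dbp*, *Il1rn*, *Ly6g*, *Mt3*, *Mt4*, *Slc30a2*, *Slc39a12* and the values of *Fkbp5* against vehicle were given outside this rule, after they were seen. One listed gene of manganese handling is not reported here. Alternatives were no filter, at least 10 counts in every library, DESeq2 size factors, library size only, DESeq2 1.42.0, limma-voom (limma 3.58.1, quality weights per sample), a single fit of all groups, the clock score as covariate, the replicate number as a block, close pairs summed, other prior counts and pseudocounts, a denominator without the most counted and mitochondrial genes, and each library left out. Leaving out AAV-miR-34b/c libraries 5 and 7 was added after seeing the data.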

Additional observations from a re-analysis of the deposited data

Results flagged for a closer look

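Among 27 groups examined (each measure in each group), 4 held a library far from the others, where chance gives 1.35, or about 1 in 20. *Mt1* was at 9.88 log2 CPM in vehicle library 2, and the next vehicle library was at 11.01. *Slc30a10* was at 4.38 log2 CPM in AAV-GFP library 7, with the next at 5.46. *Mtf1* was at 4.52 log2 CPM in AAV-GFP library 3, with the next at 3.94. The total of AAV-GFP library 5 was 4383805 counts, and the next total of the group was 3239809. No explanation of these values was tested.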

How the results depend on the processing

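The higher *Mt1* and *Mt2* levels of AAV-miR-34b/c stayed past the edgeR threshold, or that of the tool used, in each of 11 alternatives and in each fit without 1 library, with log2 fold changes of 1.44 to 2.16 and 1.75 to 3.33 against vehicle and of 2.83 to 3.43 and 2.60 to 3.55 against AAV-GFP over the alternatives. The lowest of the values against vehicle came with the clock score as covariate. By library size only, the median log2 fold change of all genes was -0.13 (AAV-miR-34b/c against vehicle) and -0.20 (against AAV-GFP), beside 0.02 and -0.01 with TMM.

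Counts of called genes moved by over 1.5 times, for causes not tested. They were 1212 for AAV-GFP against vehicle, with 2687 by limma-voom, 229 with the clock score and 227 with close pairs summed (218 shared with the 1212). For AAV-miR-34b/c against vehicle they were 2037, with 3839 by limma-voom, 1051 with the clock score, 331 with close pairs summed (319 shared) and 1352 without AAV-miR-34b/c libraries 5 and 7. For AAV-miR-34b/c against AAV-GFP they were 311, with 624 by library size only, 542 by DESeq2, 813 by limma-voom and 87 with close pairs summed (78 shared). Leaving out 1 library gave 689 to 1859, 1267 to 2695 and 209 to 344. The first count fell to 728 and 689 without vehicle library 1 or 4 and to 806 without AAV-GFP library 3 and rose to 1859 without AAV-GFP library 6, and the second fell to 1328 and 1267 without vehicle library 1 or 4.

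*Mt1* in AAV-GFP against vehicle became called with no filter (-1.09), by limma-voom (-1.17) and without AAV-GFP library 4, with -1.36 to -0.89 over the fits without 1 library, and *Mt2* there ranged from -0.43 to 0.050. The log2 ratio of *Mt1* to *Mt2* ranged over these fits from -1.15 to -0.57, -1.18 to -0.61 and -0.17 to 0.090 in the 3 comparisons, and passed the threshold against vehicle without AAV-miR-34b/c libraries 5 and 7 (-1.15). The log2 share ranged from -1.47 to -0.75 between AAV-GFP and vehicle and passed without AAV-GFP library 4 (-1.47) or 5 (-1.44). Genes without a call changed sign near 0. *Slc30a1* between the TAA groups was at -0.15 by library size only (both tests), -0.0097 and -0.025 with close pairs summed, -0.0042 by limma-voom and -0.050 and -0.054 without AAV-miR-34b/c libraries 5 and 7, and -0.045 to 0.16 (permutation) and -0.040 to 0.16 (edgeR) without 1 library. *Slc30a10* between the TAA groups was at -0.036 with the clock score and at -0.00049 to 0.35 (mean log2 CPM) without 1 library. *Mtf1* was at -0.00095 with the clock score in AAV-GFP against vehicle. In AAV-miR-34b/c against vehicle it was at 0.0043 and 0.017 with close pairs summed, 0.0075 with no filter, 0.019 with 10 counts in every library, 0.043 by limma-voom and 0.18 with the clock score. Without 1 library, *Mtf1* was at -0.096 to 0.083, -0.11 to 0.085 and -0.11 to 0.071 by mean log2 CPM and -0.091 to 0.13, -0.084 to 0.095 and -0.12 to 0.079 by edgeR.

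The replicate numbers did not pair the libraries. Same-numbered libraries correlated at -0.09 to 0.22, -0.23 to 0.27 and -0.29 to 0.21 in their deviations, over 0.1 in 2 of 5, 1 of 5 and 2 of 7 pairs, and correlated best with their own number in 1, 2 and 1 of them. With the replicate number as a block, 3088, 922 and 142 genes were called in the 3 comparisons, and in AAV-GFP against vehicle *Mt1* was called (-0.73, edgeR adjusted p = 0.00594) and *Mt2* was at 0.23 (adjusted p = 0.496).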
